A study of Homo sapiens with 12 samples.

Results

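The comparison described here is that of resveratrol with its vehicle, DMSO, in cells that received no poly I:C. It covers 15595 genes, those with at least 1 TPM in at least 2 of the 4 libraries, out of 17185 genes tested over the whole series. TPM is a level scaled for transcript length and library size, so levels may be compared between genes. Between these libraries it is comparable only within the limits given below for GC content and scaling. The cells were NS-SV-AC, a line of human salivary gland acinar cells immortalised with SV40. The DMSO depc group had 2 libraries of cells given DMSO and the transfection labelled depc, a name the labels do not spell out, and the RES depc group had 2 libraries of cells given resveratrol (RES) and the same transfection. RES was given 24 h before the transfection and once more along with it, at a labelled dose of 20 with the unit written as μm. DMSO of equal volume was the control. The same treatments with transfection of poly I:C for 14 h gave 2 further libraries each. Poly I:C is a synthetic mimic of viral double-stranded RNA. Cells given the nucleoside 2-CM at the same labelled dose with depc, also 2 libraries, are used below as another reference. All cells had been grown for 48 h, and polyadenylated RNA was sequenced. The series concerns double-stranded RNA of mitochondria in Sjögren's syndrome, and this pair of groups gives the effect of RES before any double-stranded RNA is added.

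Resveratrol is a plant polyphenol found in grape skin. It is conjugated by sulfotransferases and glucuronosyltransferases, it blocks the aryl hydrocarbon receptor (AHR), it can bind estrogen receptors, and it is widely studied in connection with the NAD-dependent deacetylase SIRT1 and the energy-sensing kinase AMPK. It is also known to disturb DNA replication and cell cycle progress in proliferating cells.

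Library size, estimated from the ratio of deposited coverage to FPKM, was 5.24 to 5.55 Gb under DMSO and 4.77 to 5.52 Gb under RES. Of the 15595 genes, 13228 reached 1 TPM in all 4 libraries, 438 did so in both RES libraries and neither DMSO library, and 83 in both DMSO libraries and neither RES library. The RES libraries stood apart from each other. Their log2(TPM + 1) values correlated at 0.936 across genes, which are not independent replicates. Between them 4796 of the 15595 genes differed by 1 or more on the log2 scale, against 404 between the DMSO libraries. The difference between replicates followed GC content, with a Spearman correlation over genes of -0.81 under RES and -0.72 under DMSO. RES replicate 1 was also high in RNAs that lack a poly(A) tail: RN7SK, an inhibitor RNA of transcription elongation, was at 16.1 and 32.6 TPM under DMSO and at 296 and 66.5 TPM under RES. RNU1-1, a spliceosomal RNA, was at 7.90 and 24.9 TPM under DMSO and at 202 and 42.1 TPM under RES. The part of these features in the results below was not tested beyond the values given with them. Of the 9 salivary acinar markers, 2 were among the 15595 genes and 4 were at 0 in all 4 libraries, AQP5 among them, and the summed level was 5.17 to 7.11 TPM under DMSO and 4.78 to 9.004 TPM under RES. Epithelial markers summed to 2302 to 2495 TPM under DMSO and 1683 to 2332 TPM under RES, almost wholly of KRT8 and KRT18. EPCAM, CDH1, KRT19 and KRT7 were each below 1 TPM under DMSO and at most 1.28 TPM under RES. Fibroblast markers summed to 734 to 831 TPM and 471 to 633 TPM, mostly of VIM, with COL1A2 at 0 in all 4 libraries. Basal and myoepithelial markers were instead higher under RES, with 25.5 to 31.2 TPM under DMSO and 36.9 to 37.8 TPM under RES. That sum was almost wholly of ACTA2, CNN1 and MYLK, with KRT5 and KRT14 at 0 in all 4 libraries. The immune sum was also higher, at 8.84 to 9.40 TPM and 11.9 to 16.3 TPM, with 4 of 6 immune markers at 0 in all 4 libraries. It was mostly of CD14, at 8.24 and 8.32 TPM under DMSO and at 11.5 and 15.8 TPM under RES. CD79A went the other way, at 0.601 and 1.08 TPM and at 0.357 and 0.440 TPM. Endothelial markers summed to 1.39 to 2.00 TPM and 0.620 to 1.36 TPM.

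RES changed 176 of the 15595 genes, 143 higher and 33 lower (limma on log2(TPM + 1), adjusted p under 0.05 over all genes tested). Over all genes tested 177 passed, which is 1.03%, with 0.838% higher and 0.192% lower, and 2524 had an unadjusted p under 0.05. In each of the 176 the RES libraries did not overlap the DMSO libraries, and 159 were protein-coding. Of the 143, 46 reached 1 TPM in both RES libraries and in neither DMSO library, and 7 of the 33 in both DMSO libraries and in neither RES library. Such genes entered through the group where they are high and had to differ, so the counts are no measure of how many genes respond. The other 97 and 26 reached it in at least 1 library of the lower group. The log2 fold changes of the genes that rose ran from 0.72 to 3.59, with a median of 1.32, and those of the genes that fell from -2.15 to -0.87, with a median of -1.37. The median of all genes was itself 0.15 above 0 on the log2 scale. The split between higher and lower depended on the setting. Upper-quartile scaling, with a median of -0.01, gave 12 higher and 14 lower, and median-of-ratios scaling gave 6 and 7. Of all members, 65.1% had a positive log2 fold change, 26.0% lay above DMSO with no overlap, 8.48% below, and 65.6% overlapped. The direction of each of the 177 was kept under every alternative that tested it, but many of these could not change it. Leaving out a library of another group, fitting fewer groups or adding the replicate block leaves the estimate as it was. Leaving out any of the 4 libraries compared cannot turn a gene whose groups do not overlap. The spread behind the limma tests was pooled over all 12 libraries of the series. Fitted on the 4 libraries compared or the 6 depc libraries alone, limma called 0 genes, with 1122 and 1893 at an unadjusted p under 0.05. Without DMSO depc replicate 1 or 2, or 2-CM poly I:C replicate 1 or 2, limma called 0 genes, with 1508 to 2157 at an unadjusted p under 0.05. It called 7 without RES depc replicate 1, 20 without RES depc replicate 2, 25 without either 2-CM depc replicate, 33 without either DMSO poly I:C replicate, and 65 and 67 without RES poly I:C replicate 1 and 2.

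**Figure D1:**
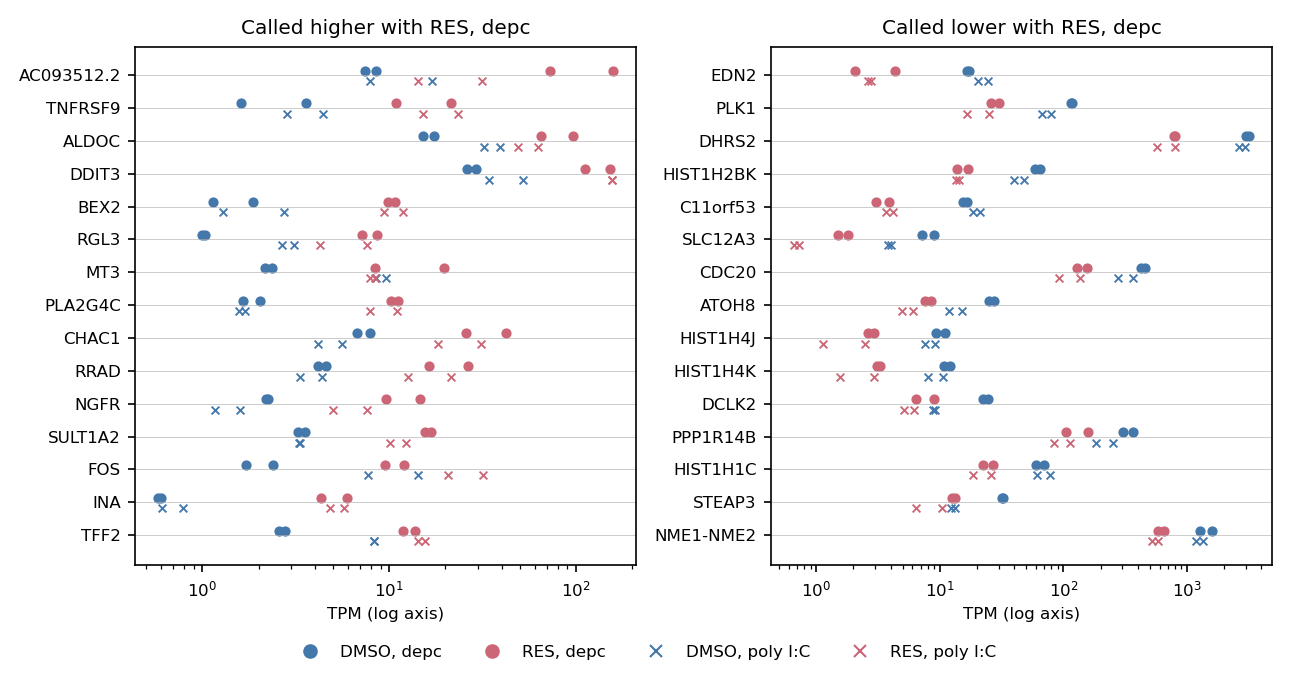
TPM (log axis) in each library of the 15 genes with the largest fold change in each direction among the called protein-coding genes with a mean of at least 5 TPM in the higher group, circles with depc and crosses with poly I:C, blue for DMSO and red for RES. In every row the 2 red circles lie apart from the 2 blue circles, and with poly I:C the red and blue crosses of AC093512.2 and MT3 interleave or nearly meet.

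DDIT3 and CHAC1, stress genes listed as targets of the transcription factor ATF4, were among the larger increases. ATF4 is translated when the kinases of the integrated stress response phosphorylate eIF2α, and it turns on genes of amino acid supply and of the response to protein stress. Of 25 ATF4 targets, 3 rose and 0 fell, where 0.838% of all genes tested rose. Of the 25, 20 had a positive log2 fold change, 13 were above DMSO with no overlap and 2 below, against 65.1%, 26.0% and 8.48% of all members. Their median was 0.52, against 0.15 for all members, and with poly I:C it was 0.56, against 0.29. DDIT3 (ENSG00000175197.12, chr12:57516588-57521737, minus strand, hg38) encodes CHOP, a transcription factor of the stress response. It was at 29.0 and 26.0 TPM under DMSO and at 152 and 112 TPM under RES. Both RES libraries were far above both DMSO libraries, and the gene rose by 2.21 on the log2 scale (SE 0.246, adjusted p 0.0133 with limma). DDIT3 overlaps MARS and MBD6 on the opposite strand, and no strand option is recorded for the counting, so reads of these genes may not have been told apart.

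CHAC1 (chr15:40952962-40956512, plus strand), an enzyme that breaks down glutathione, was at 6.71 and 7.91 TPM under DMSO and at 25.8 and 42.2 TPM under RES. It rose by 2.04 (SE 0.335, adjusted p 0.0381 with limma), with the RES libraries well above the DMSO libraries though apart from each other. NUPR1, a small stress-induced chromatin protein, was at 0.151 and 0.125 TPM under DMSO and at 1.37 and 3.81 TPM under RES, an increase of 1.57 (SE 0.292, adjusted p 0.0491). It is a member through its RES libraries alone. The remaining targets did not pass. ASNS, asparagine synthetase, was at 14.4 and 13.6 TPM under DMSO and at 75.5 and 24.1 TPM under RES (1.55, adjusted p 0.27), and ATF3, a transcription factor, at 6.28 and 3.91 TPM and at 25.3 and 15.8 TPM (1.82, adjusted p 0.0622). ASNS and its pseudogene ASNSP1, which rose, are nearly identical copies. Together they summed to 14.4 ± 0.863 TPM (SD, n = 2) under DMSO and 55.2 ± 39.0 TPM under RES, where replicate 1 carried most of the increase. SLC7A5, an amino acid transporter and also a target of AHR, lay on the other side, at 279 and 282 TPM under DMSO and at 117 and 149 TPM under RES (-1.08, adjusted p 0.0548). ATF4 mRNA itself was at 191 and 189 TPM under DMSO and at 158 and 168 TPM under RES (-0.22, adjusted p 0.534).

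The promoter of CHAC1 is shown because it carries the paired C/EBP-ATF element to which ATF4 binds. It is given from RefSeq (GRCh38.p14), 250 bases up to RefSeq's start of the gene, 5′ to 3′ on the gene's strand, with the match to TGATGNAA, here on the opposite strand, in capitals. It lies at chr15:40953221-40953470, plus strand, and the match begins 209 bases before the start.
CHAC1: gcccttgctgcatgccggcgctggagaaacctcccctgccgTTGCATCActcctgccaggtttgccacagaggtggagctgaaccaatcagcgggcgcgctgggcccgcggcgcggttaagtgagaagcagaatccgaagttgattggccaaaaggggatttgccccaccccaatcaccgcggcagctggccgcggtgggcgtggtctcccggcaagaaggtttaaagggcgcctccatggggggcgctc
Read on both strands, TGATGNAA was found in 3.19% of the 27305 RefSeq promoters of this length, and in 3 of the 20 ATF4 targets with a promoter sequence, ASNS, ATF3 and CHAC1. The match is a description of the sequence and not a site of binding in these cells.

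Genes of the unfolded protein response, the chaperones and sensors of the endoplasmic reticulum, showed 0 calls among 22. Their median was 0.23, 20 were positive and 18 overlapped between groups, where 65.1% and 65.6% of all members did so. The 3 most abundant, CALR, HSP90B1 and PDIA3, had log2 fold changes of 0.24, 0.19 and 0.39, with adjusted p of 0.455 or more in limma. Among 18 heat shock genes 0 were called, with a median of -0.13. HSPA8 was at 1477 and 1121 TPM under DMSO and at 1479 and 439 TPM under RES, so that only RES replicate 2 was low. HSPB1 was at 1117 and 1204 TPM under DMSO and at 621 and 883 TPM under RES (-0.65, adjusted p 0.238), and HSP90AB1 had a log2 fold change of -0.04.

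A pair of central mitotic genes fell with RES. Polo-like kinase 1 (PLK1) drives entry into mitosis and spindle assembly, and CDC20 activates the anaphase-promoting complex that ends metaphase. PLK1 (ENSG00000166851.15, chr16:23677656-23690367, plus strand) was at 117 and 115 TPM under DMSO and at 25.8 and 30.0 TPM under RES. It fell by 2.02 (SE 0.210, adjusted p 0.0133 with limma), a 4.15-fold lower mean level, with replicates of each group close together. CDC20 (ENSG00000117399.14, chr1:43358981-43363203, plus strand) was at 426 and 460 TPM under DMSO and at 130 and 155 TPM under RES, and fell by 1.64 (SE 0.211, adjusted p 0.0223). In bulk RNA, fewer cells in G2 or mitosis and less of these RNAs per cell cannot be told apart.

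These 2 were the calls among 35 genes of G2 and M, where 0.192% of all genes tested were called lower. Of the 35, 32 had a negative log2 fold change, 9 lay below DMSO with no overlap, 0 lay above, and 26 overlapped. Of all members 65.1% were positive, 8.48% lay below, 26.0% above, and 65.6% overlapped. The median was -0.37, against 0.15 for all members, and -0.26 with poly I:C. The list has a median GC content of 44.5%, against 48.7% for all members, and its median was 0.14 without RES depc replicate 2, where that of all members was 0.45, and was -1.06 without RES depc replicate 1, where that of all members was -0.10. Relative to all members it stayed lower, by 0.31 to 0.96, under every setting in which list medians were taken. KIF20A, a mitotic kinesin, was at 72.6 and 47.7 TPM under DMSO and at 32.3 and 17.4 TPM under RES (-1.27, adjusted p 0.163). UBE2C, the ubiquitin-conjugating enzyme of the anaphase-promoting complex, was at 269 and 282 TPM and at 167 and 173 TPM (-0.69, adjusted p 0.129). CCNB1, cyclin B1, was at 168 and 103 TPM under DMSO and at 115 and 38.3 TPM under RES, so its groups overlapped.

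The promoters of PLK1 and CDC20 are shown because G2 and M genes are commonly controlled through the cell cycle genes homology region, TTTGAA, next to CCAAT boxes. Both are from RefSeq (GRCh38.p14), 250 bases up to the start on the gene's strand, with matches to TTTGAA on either strand in capitals. That of PLK1 lies at chr16:23678639-23678888, plus strand, with a match beginning 29 bases before the start, and that of CDC20 at chr1:43358731-43358980, plus strand, with matches beginning 178 and 65 bases before it, the first on the opposite strand.
PLK1: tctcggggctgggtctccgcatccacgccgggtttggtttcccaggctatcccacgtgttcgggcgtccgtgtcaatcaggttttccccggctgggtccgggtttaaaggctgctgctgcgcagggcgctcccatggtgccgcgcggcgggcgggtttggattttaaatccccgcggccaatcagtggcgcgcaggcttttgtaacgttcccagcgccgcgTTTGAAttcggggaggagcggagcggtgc
CDC20: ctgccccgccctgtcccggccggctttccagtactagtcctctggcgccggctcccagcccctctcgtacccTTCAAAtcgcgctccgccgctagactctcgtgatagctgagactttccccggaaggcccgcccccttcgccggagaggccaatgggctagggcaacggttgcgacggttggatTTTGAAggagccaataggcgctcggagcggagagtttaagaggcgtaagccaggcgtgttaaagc
TTTGAA was found on either strand in 13.6% of the 27305 promoters and in 15 of the 29 G2 and M genes with a promoter sequence. CCAAT was found in 33.0% of all and in 23 of those 29. PLK1 and CDC20 hold both.

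Genes of S phase, which supply DNA replication, held no call. Of 39, 0 were called, 30 had a positive log2 fold change, against 65.1% of all members, and the median was 0.39, with 0.45 under poly I:C. Without RES depc replicate 1 the median was -0.12, close to that of all members. TK1, thymidine kinase, was at 500.0 and 571 TPM under DMSO and at 608 and 902 TPM under RES (0.47, adjusted p 0.529), while MCM7 and MCM4, subunits of the replicative helicase, had log2 fold changes of -0.22 and 0.10. Of 25 targets of p53, 2 rose and 0 fell, where 0.838% and 0.192% of all genes tested did so. Of the 25, 22 were positive, against 65.1% of all members, and the median was 0.49, against 0.15. BTG2, an antiproliferative protein, was at 3.89 and 3.65 TPM under DMSO and at 14.5 TPM in both RES libraries, and rose by 1.70 (SE 0.209, adjusted p 0.0180). PLK3, a stress-related polo-like kinase, was at 4.13 and 5.62 TPM under DMSO and at 14.3 and 17.8 TPM under RES (1.54, SE 0.285, adjusted p 0.0483). CDKN1A, the cell cycle inhibitor p21, was at 81.6 and 101.3 TPM under DMSO and at 99.1 and 166 TPM under RES, and its groups overlapped (0.49, adjusted p 0.541 with limma).

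Histone genes of the clusters on chromosomes 1 and 6 made up 6 of the 33 decreases, a group singled out after its values were seen. These were 6 of the 34 such genes measured, where 0.192% of all genes tested were called lower. Histones package DNA, and most genes of these clusters are expressed with DNA replication as RNAs without a poly(A) tail, so a library of polyadenylated RNA holds only part of their transcripts. HIST1H2BK (ENSG00000197903.7, chr6:27146418-27146798, minus strand), an H2B gene, was at 64.6 and 59.4 TPM under DMSO and at 13.8 and 16.8 TPM under RES. It fell by 1.95 (SE 0.176, adjusted p 0.0133 with limma), with no overlap and close replicates. HIST1H1C, a linker histone, was at 60.0 and 69.3 TPM under DMSO and at 22.5 and 26.9 TPM under RES, a fall of 1.36 (SE 0.215, adjusted p 0.0369). HIST1H2BJ, HIST1H3H, HIST1H4J and HIST1H4K also fell, with log2 fold changes of -1.60, -1.93, -1.56 and -1.56. HIST1H3H, at 5.32 and 4.40 TPM under DMSO and at 0.746 and 0.337 TPM under RES, is a member through its DMSO libraries alone. HIST1H4J and HIST1H4K, like other histone genes of 1 kind, are near-identical copies among which reads can be split, and together they were at 21.6 ± 2.27 TPM (SD, n = 2) under DMSO and 5.99 ± 0.376 TPM under RES.

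All 34 HIST genes measured had a negative log2 fold change with depc, 29 lay below DMSO with no overlap, and 0 rose. Of all members 65.1% were positive and 8.48% lay below with no overlap. Of the 34, 11 reached 1 TPM in both DMSO libraries and in neither RES library, so they entered through the group where they are high and had to differ. Of the other 23, 18 lay below without overlap, with a median of -0.95. The median of the 34 was -0.90, against 0.15 for all members. With poly I:C it was -0.85, against 0.29, and 32 of 34 were negative. The 11 histone genes outside these clusters, whose RNAs are mostly polyadenylated, had a median of -0.22 with 0 called. The list of RNAs without poly(A) tails, which includes 4 of the HIST genes, had 8 of its other members on the opposite side. Of its 13 members 8 lay above DMSO with no overlap, the 4 HIST genes lay below and RNU5A-1 overlapped. Among all members 26.0% lay above, 8.48% lay below and 65.6% overlapped. The median of the list was 1.31, and its single call was HIST1H1C. The median was 0.34 without RES depc replicate 1 and 1.91 without RES depc replicate 2. RN7SK and RNU1-1 were highest in RES replicate 1, and HIST1H1C and HIST1H2BK were low in both RES libraries; the part of RNA without poly(A) tails in the HIST values was not tested.

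**Figure D2:**
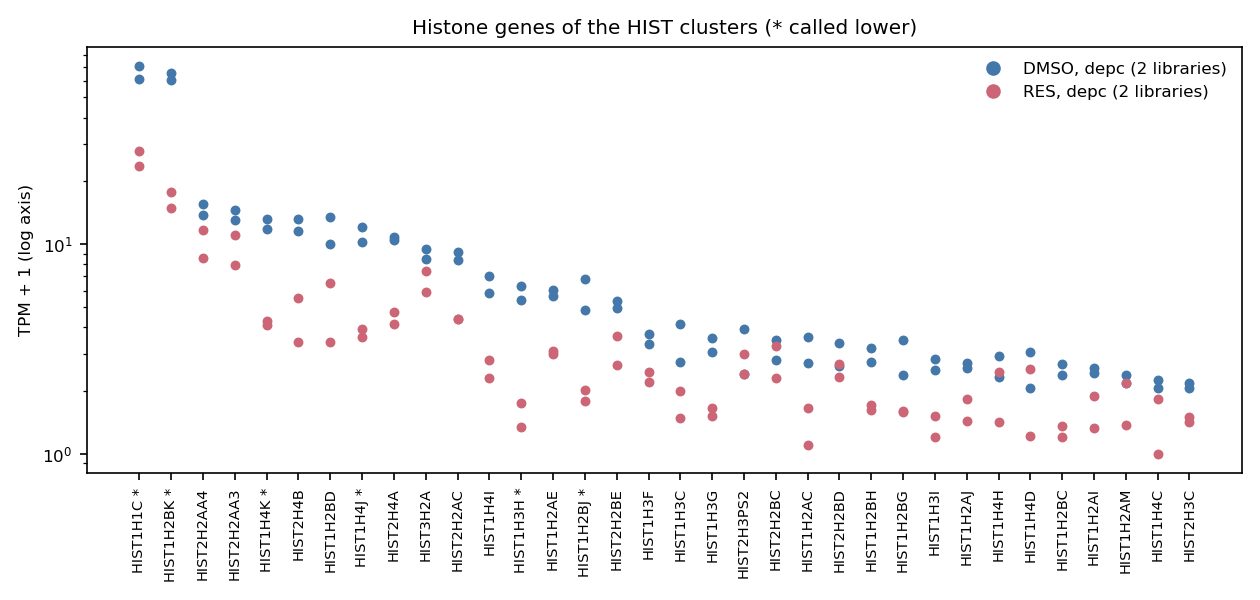
TPM + 1 (log axis) of the 34 HIST genes measured, 2 DMSO libraries in blue and 2 RES libraries in red, with depc. HIST1H1C and HIST1H2BK are the most abundant, and the red points lie below the blue points without overlap in 29 of 34, of which 11 reached 1 TPM under DMSO alone.

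The promoters of HIST1H2BK (H2BC12 in RefSeq) and HIST1H2BJ (H2BC11) are shown because they share the octamer ATTTGCAT, the element known to drive H2B genes in S phase, in capitals below. They are from RefSeq (GRCh38.p14), 250 bases up to the start on the gene's strand, at chr6:27146859-27147108 and chr6:27132796-27133045, both on the minus strand, and the matches begin 46 and 47 bases before the start.
HIST1H2BK: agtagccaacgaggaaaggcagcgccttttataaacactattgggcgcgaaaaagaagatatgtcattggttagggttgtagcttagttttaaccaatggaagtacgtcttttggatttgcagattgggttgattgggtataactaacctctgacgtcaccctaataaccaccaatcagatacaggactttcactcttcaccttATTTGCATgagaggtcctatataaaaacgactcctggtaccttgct
HIST1H2BJ: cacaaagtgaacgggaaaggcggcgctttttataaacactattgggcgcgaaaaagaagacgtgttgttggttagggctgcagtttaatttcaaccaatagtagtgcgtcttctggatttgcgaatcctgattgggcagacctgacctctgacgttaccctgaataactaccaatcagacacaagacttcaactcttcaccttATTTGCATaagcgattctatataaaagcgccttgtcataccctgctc
On either strand the octamer was found in 6 of the 7 H2B genes of the clusters that had a promoter sequence, of 9 measured, and in 1.66% of the 27305 promoters.

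Targets of NF-kB, the transcription factor of inflammatory signalling, held 1 call among 14, where 1.03% of all genes tested passed. ICAM1 (ENSG00000090339.9, chr19:10271093-10286615, plus strand), an adhesion molecule for leukocytes, was at 33.9 and 35.8 TPM under DMSO and at 96.7 and 112 TPM under RES. It rose by 1.55 (SE 0.170, adjusted p 0.0133 with limma), and it also passed with poly I:C (1.73, adjusted p 0.0243). Of the 14, 11 were positive, 9 lay above DMSO with no overlap and 1 below, where the shares over all members were 65.1%, 26.0% and 8.48%. The median was 0.62, against 0.15 for all members. NFKB2 and RELB, subunits of the noncanonical pathway, had log2 fold changes of 1.15 and 1.30 (adjusted p 0.0574 and 0.0784), while CCL2, a chemokine, had -0.36. A further 9 listed targets, CXCL8, IL6 and TNF among them, did not reach 1 TPM in 2 libraries. TNFRSF9, a costimulatory receptor of the TNF receptor family, was at 3.57 and 1.61 TPM under DMSO and at 21.5 and 10.9 TPM under RES, and rose by 2.24 (SE 0.405, adjusted p 0.0460).

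Interferon-induced genes, the antiviral program that poly I:C turns on, had mostly positive values with RES before any poly I:C. Only 1 passed, where 1.03% of all genes tested did. Of 32, 28 had a positive log2 fold change, 17 lay above DMSO with no overlap and 0 below, against 65.1%, 26.0% and 8.48% of all members. The median was 0.55, against 0.15. IFI27 (ENSG00000165949.12, chr14:94104836-94116698, plus strand), an interferon-induced mitochondrial protein, was the 1 gene called. It was at 0.619 and 0.752 TPM under DMSO and at 3.09 and 4.02 TPM under RES, so that it is a member through the RES libraries alone, and rose by 1.43 (SE 0.242, adjusted p 0.0381 with limma). With poly I:C the same gene was at 114 and 170.1 TPM under DMSO and at 84.7 and 96.0 TPM under RES, a log2 fold change of -0.62 (adjusted p 0.314). The difference between the RES effects was -2.05 (SE 0.342, unadjusted p 0.000229, adjusted p 1.00 in limma). IFI6 was at 68.5 and 78.4 TPM under DMSO and at 127 and 180 TPM under RES (1.04, adjusted p 0.0635), and IRF7, a transcription factor that amplifies interferon genes, at 4.25 and 4.597 TPM and at 10.1 and 17.6 TPM (1.41, adjusted p 0.0817). With poly I:C the list's median was 0.07, against 0.29 for all members. The difference of the list itself was not tested here.

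Early response genes and AP-1 subunits held 1 call among 19, where 1.03% of all genes tested passed. FOS, an AP-1 subunit, was at 2.39 and 1.71 TPM under DMSO and at 12.1 and 9.50 TPM under RES, and rose by 1.95 (SE 0.338, adjusted p 0.0419). Of the 19, 15 were positive, 12 lay above DMSO with no overlap and 2 below, beside 65.1%, 26.0% and 8.48% of all members, and the median was 0.50, beside 0.15. EGR1, a zinc finger factor, was at 24.3 and 23.0 TPM under DMSO and at 42.9 and 38.5 TPM under RES (0.76, adjusted p 0.0802). MYC was at 49.0 and 29.0 TPM under DMSO and at 28.5 and 19.6 TPM under RES (-0.65, adjusted p 0.399).

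The pathways most often named with resveratrol follow, and their counts of calls are to be read beside the 1.03% of all genes tested that passed. Among 12 genes of its metabolism and its binding targets, SULT1A1 (ENSG00000196502.11, chr16:28605196-28623625, minus strand), a phenol sulfotransferase, was at 49.7 and 51.6 TPM under DMSO and at 105 and 131 TPM under RES. It rose by 1.20 (SE 0.184, adjusted p 0.0349 with limma). SULT1A2, its close copy, was at 3.54 and 3.24 TPM under DMSO and at 16.7 and 15.5 TPM under RES (1.96, adjusted p 0.0181). Reads may be split between these copies, and their sum was 54.0 ± 1.10 TPM (SD, n = 2) under DMSO and 134 ± 17.6 TPM under RES. The median of the 12 was 0.16. The glucuronosyltransferases UGT1A1, UGT1A6 and UGT1A9 and the cyclooxygenase PTGS2 did not reach 1 TPM in 2 libraries.

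AHR targets showed 0 calls among 10, 7 of them negative, with a median of -0.44. After the GC correction described below, 4 of the 10 were lower and 1 higher, against 6.04% and 5.93% of all members. CYP1B1, a cytochrome P450 that AHR induces, was at 48.4 and 27.8 TPM under DMSO and at 10.2 and 3.35 TPM under RES. The groups did not overlap, the replicates of each differed widely, and the log2 fold change of -2.43 (SE 0.659) had an adjusted p of 0.114 in limma. CYP1A1 was at 3.54 and 4.45 TPM under DMSO and at 1.06 and 2.14 TPM under RES (-0.97, adjusted p 0.125). NQO1, a quinone reductase shared with the NRF2 program, was at 61.7 and 61.4 TPM under DMSO and at 63.9 and 55.6 TPM under RES (-0.05). The AHR median relative to all members lay between -0.66 and -0.38 over the settings in which list medians were taken. The AHR median itself was 0.08 without RES depc replicate 2, where that of all members was 0.45.

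Among 15 sirtuins and genes of NAD supply 0 were called, 12 were positive, against 65.1% of all members, and the median was 0.34. SIRT1 was at 6.65 and 3.66 TPM under DMSO and at 8.68 and 2.68 TPM under RES, a log2 fold change of 0.00, and the RES values enclosed the DMSO values. QPRT, NNMT and PARP1, the most abundant of the list, had log2 fold changes of 0.52, -0.33 and 0.34, none with an adjusted p under 0.30. Of 19 targets of NRF2, the regulator of antioxidant genes, 0 were called and the median was 0.04. The ferritin subunits FTL and FTH1 had log2 fold changes of 0.32 and -0.46, and the pentose phosphate enzyme TKT had -0.52. Of 11 estrogen receptor genes 5 were lower and 1 higher after GC correction, against 6.04% and 5.93% of all members. As deposited 0 were called, and the median was -0.28. CTSD, IGFBP4 and XBP1 had log2 fold changes of 0.12, -0.28 and 0.75, and the receptors ESR1 and ESR2 did not reach 1 TPM in 2 libraries.

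The share of mitochondrial mRNA was compared next. The 13 mRNAs encoded in mitochondrial DNA made up 24.6% and 25.7% of TPM under DMSO and 22.3% and 25.2% under RES, or 25.1% ± 0.821 (SD, n = 2) and 23.8% ± 2.05. The groups overlapped, and the difference of -1.35 percentage points had a two-sided exact permutation p of 0.667, where 0.333 is the smallest that 2 against 2 libraries allow, so this test could not have shown a difference. Leaving out each library in turn gave -2.80 to 0.0995, the last without RES depc replicate 1, and over all 37 mitochondrially encoded genes the difference was 0.283. In limma 0 of the 13 were called. Of the 13, 10 were negative, 6 lay below DMSO with no overlap and 0 above, against 8.48% of all members below, and the median was -0.08. MT-CO2, MT-CO3 and MT-ATP6, subunits of cytochrome c oxidase and ATP synthase, had log2 fold changes of -0.09, -0.07 and -0.18. Among 23 nuclear genes of mitochondrial biogenesis and AMPK 0 were called, with a median of -0.06. After GC correction 4 were lower, against 6.04% of all members. UCP2, PRKAG1 and ESRRA, the most abundant, had log2 fold changes of 0.29, 0.23 and -0.08.

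The remaining lists held 1 call each, where 1.03% of all genes tested passed. Among 31 genes of glycolysis and hypoxia the median was -0.23, against 0.15 for all members. Of the 31, 18 were negative, 6 lay above DMSO with no overlap and 11 below. Of all members 65.1% were positive, 26.0% lay above and 8.48% below. The gene called went the other way: ENO2, the neuronal enolase, was at 76.8 and 81.0 TPM under DMSO and at 193 and 228 TPM under RES. ENO2 rose by 1.40 (SE 0.168, adjusted p 0.0163 with limma). GAPDH was at 10555 and 12125 TPM under DMSO and at 7594 and 10932 TPM under RES, and its groups overlapped. ABCG1, a cholesterol exporter, rose by 1.18 (adjusted p 0.0483), from 2.00 and 2.01 TPM to 5.74 and 5.89 TPM, among 28 cholesterol genes with a median of -0.03. NEU1, a lysosomal sialidase, rose by 1.18 (adjusted p 0.0483), from 7.60 and 8.07 TPM to 16.8 and 21.5 TPM, among 26 lysosome and autophagy genes with a median of 0.34. COL7A1, the collagen of anchoring fibrils, rose by 1.44 (adjusted p 0.0369), from 2.78 and 3.09 TPM to 9.44 and 9.86 TPM, among 30 matrix genes with a median of 0.14. Of the 30, 12 lay above DMSO with no overlap and 9 below, against 26.0% and 8.48% of all members.

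List medians moved with single libraries. Without RES depc replicate 2 the medians of glycolysis and hypoxia, heat shock, cholesterol genes and mitochondrial biogenesis were 0.19, 0.21, 0.40 and 0.34, and without DMSO depc replicate 1 they were 0.04, 0.03, 0.19 and 0.15, where they were below 0 with all 4 libraries. Without RES depc replicate 1 the medians of NRF2 targets, resveratrol metabolism and the unfolded protein response were -0.14, -0.04 and -0.08 and that of heat shock -0.54, and without DMSO depc replicate 2 that of NRF2 targets was -0.07. Over these 4 settings the medians stayed between 0.46 and 0.71 for ATF4 targets, 0.51 and 0.65 for NF-kB targets, 0.39 and 0.80 for interferon-induced genes, 0.39 and 0.74 for p53 targets and 0.50 and 0.68 for early response genes. The median of all members ran from -0.10 to 0.45. Relative to it these lists lay higher by 0.26 to 0.57, 0.20 to 0.61, 0.32 to 0.49, 0.29 to 0.68 and 0.085 to 0.78, in the same order. These ranges cover the values as deposited, FPKM, upper-quartile and median-of-ratios scaling, a pseudocount of 0.1, GC correction and each library left out. Leaving out a library of another group cannot move these medians. List medians were not taken under the other settings. The excess of early response genes was smallest without RES depc replicate 2, where their median was 0.54 and that of all members 0.45.

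**Figure D3:**
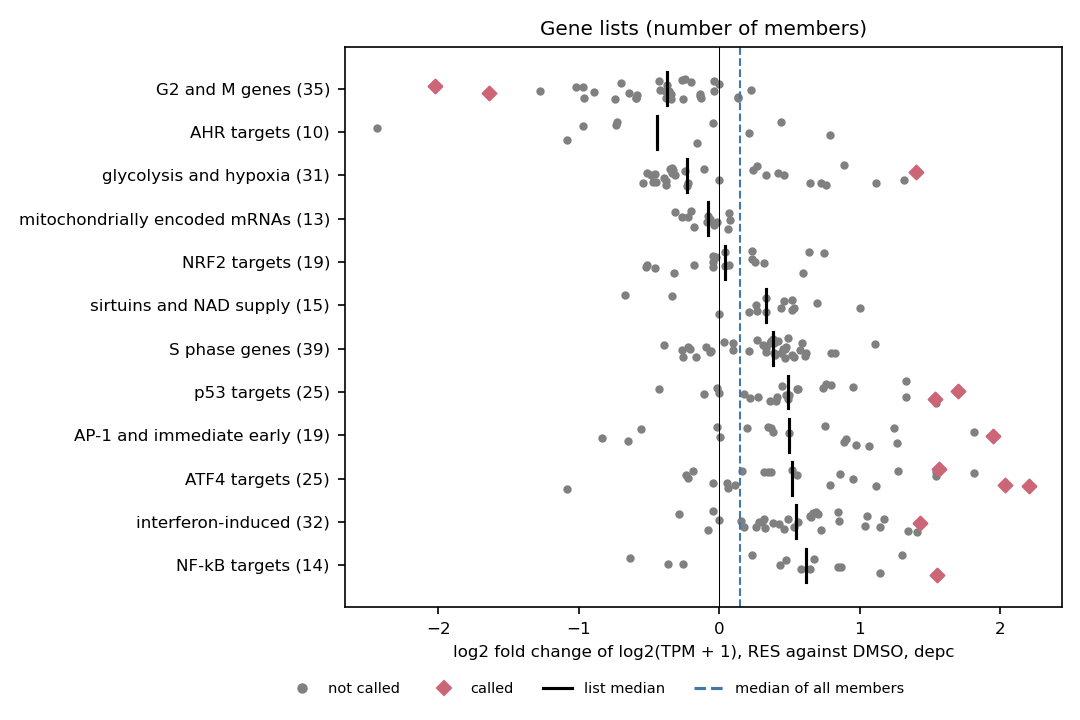
log2 fold changes of log2(TPM + 1), RES against DMSO with depc, for the members of 12 of the 21 gene lists; each point is a gene, diamonds are genes called, black bars are list medians and the dashed line is the median of all members, 0.15. The G2 and M genes and the AHR targets lie mostly to the left, with medians of -0.37 and -0.44, and the NF-kB targets mostly to the right, with a median of 0.62.

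Several of the largest changes lay outside these lists. DHRS2 (ENSG00000100867.14, chr14:23630115-23645639, plus strand), a short-chain dehydrogenase, was among the most abundant mRNAs, at 3189.6 and 3008 TPM under DMSO and at 790.04 and 803 TPM under RES. It fell by 1.96 (SE 0.164, adjusted p 0.0133 with limma), with replicates of each group close together. EDN2, a peptide ligand of endothelin receptors, was at 17.2 and 16.7 TPM under DMSO and at 2.05 and 4.33 TPM under RES, the largest decrease called on the log2(TPM + 1) scale (-2.15, SE 0.302, adjusted p 0.0269). C11orf53, a coactivator of POU-domain factors, fell from 15.3 and 16.7 TPM to 3.07 and 3.86 TPM (-1.94), and SLC12A3, a sodium-chloride cotransporter, from 9.02 and 7.11 TPM to 1.81 and 1.49 TPM (-1.77). ATOH8, a helix-loop-helix factor, DCLK2, a doublecortin-like kinase, PPP1R14B, an inhibitor of protein phosphatase 1, and STEAP3, an endosomal metalloreductase, fell by 1.60, 1.51, 1.37 and 1.25. PPP1R14B overlaps an antisense gene. NME1-NME2 is a read-through of NME1 and NME2: it fell by 1.21, and the locus as a whole went from 3052 ± 128 TPM (SD, n = 2) to 1911 ± 158 TPM.

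ALDOC (chr17:28573115-28576948, minus strand), the brain form of the glycolytic enzyme aldolase, was at 15.2 and 17.4 TPM under DMSO and at 65.3 and 96.2 TPM under RES. It rose by 2.22 (SE 0.232, adjusted p 0.0133 with limma), with RES above DMSO in both libraries. AC093512.2, a read-through at the ALDOA locus, had the largest log2 fold change of TPM + 1 among the called genes, from 7.45 and 8.52 TPM to 72.4 and 159 TPM (3.59, SE 0.593, adjusted p 0.0381). Reads there can pass between it and ALDOA, and the summed locus was lower, at 2997 ± 373 TPM (SD, n = 2) under DMSO and 2291 ± 697 TPM under RES. PLA2G4C, a cytosolic phospholipase A2, rose by 2.04 and SULT1A2 by 1.96. NGFR, the low-affinity neurotrophin receptor, was at 2.25 and 2.20 TPM under DMSO and at 9.57 and 14.7 TPM under RES (2.00, adjusted p 0.0269). BEX2 rose by 2.18, INA, an intermediate filament protein that reached 1 TPM under RES alone, by 1.93 and MT3, a metallothionein, by 2.096. RGL3, an exchange factor for Ral that overlaps EPOR on the same strand, rose by 2.14, RRAD, a small GTPase, by 2.02 and TFF2, a trefoil peptide, by 1.90.

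The RES effect was also measured with poly I:C, in 4 libraries that are not among the 4 compared with depc. Both comparisons use the same pooled standard error for a gene, so genes called with depc partly for a small error also have that error with poly I:C. There limma called 27 of 17185 genes (0.157%), 12 higher (0.0698%) and 15 lower (0.0873%), and 2296 had an unadjusted p under 0.05. The split was 4 higher and 13 lower with upper-quartile scaling and 5 and 18 with median-of-ratios scaling. It was 45 and 29 with estimated reads in place of TPM. Without each of the 12 libraries in turn the count was 0 to 27. It was 0 without either DMSO depc or either 2-CM poly I:C replicate (1857 to 1918 at an unadjusted p under 0.05), 1 without either DMSO poly I:C replicate, 2 without either 2-CM depc replicate, and 4 and 3 without RES poly I:C replicate 1 and 2. Of the 176 genes called with depc, 174 had the same sign with poly I:C, 158 with an unadjusted p under 0.05, and 23 were called, 11 higher and 12 lower. In 172 the poly I:C libraries did not overlap either, on the same side. Of all members, 74.6% had the same sign in both, 13.2% also with an unadjusted p under 0.05 with poly I:C, and 31.3% had poly I:C libraries without overlap on that side. The median log2 fold change of the genes that rose was 1.32 with depc and 0.93 with poly I:C, and that of the genes that fell -1.37 and -1.15. The genes were chosen on their depc values, which by itself favours larger values there. These medians therefore cannot show a weaker effect with poly I:C. Over all members the median was 0.15 with depc and 0.29 with poly I:C.

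PLK1 with poly I:C was at 66.6 and 79.9 TPM under DMSO and at 25.1 and 16.6 TPM under RES (-1.79, adjusted p 0.0278 with limma). DDIT3 was at 52.2 and 34.3 TPM under DMSO and at 155 TPM in both RES libraries (1.85, adjusted p 0.0393). DHRS2 changed by -2.04 (adjusted p 0.0126), EDN2 by -2.66 (adjusted p 0.0265) and HIST1H2BK by -1.59 (adjusted p 0.0265). The 2 genes with the other sign were IFI27 and MT3. MT3 was at 2.35 and 2.17 TPM under DMSO with depc and at 8.42 and 19.6 TPM under RES, but with poly I:C at 8.49 and 9.63 TPM under DMSO and at 8.39 and 7.85 TPM under RES. Its RES effects differed by -2.24 (SE 0.487, unadjusted p 0.00142, adjusted p 1.00). ALDOC had a smaller log2 fold change with poly I:C (0.62), a difference of -1.60 with an unadjusted p of 0.000957. Over all 17185 genes, limma called 0 for the difference between the RES effects (0%), with 293 at an unadjusted p under 0.05. It called 1 without DMSO poly I:C replicate 1, either 2-CM depc replicate or RES poly I:C replicate 1, and 2 without RES poly I:C replicate 2.

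**Figure D4:**
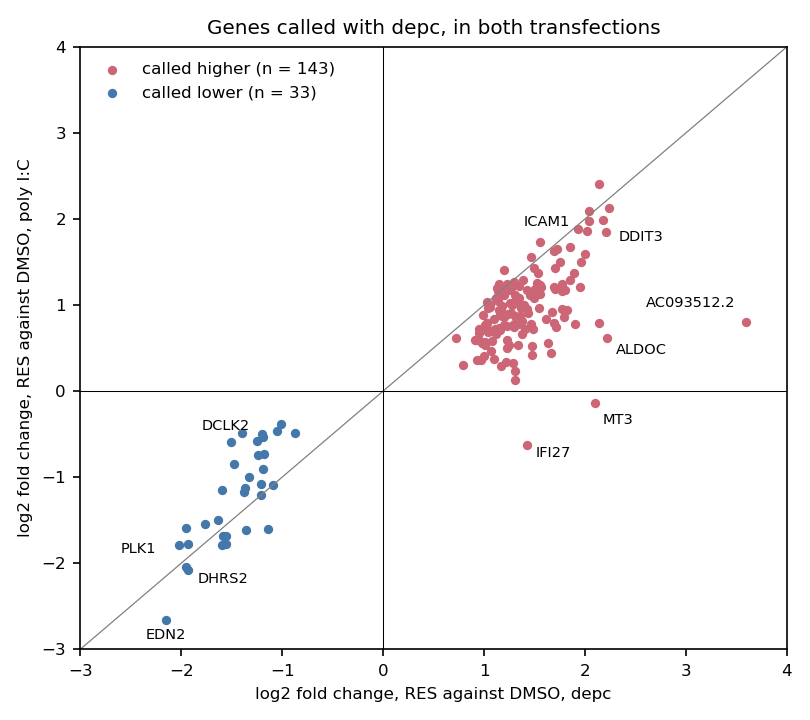
log2 fold change of RES against DMSO with depc (x axis) and with poly I:C (y axis) for the 176 genes called with depc, which chose them; red called higher, blue called lower, the line marks equal values. All but IFI27 and MT3 keep their sign, and most red points lie below the line, the side that the choice by depc values favours.

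Against 2-CM with depc, which shares the RES libraries with the comparison above, 103 genes were called (0.599%), 69 higher (0.402%) and 34 lower (0.198%) in RES, with 2985 at an unadjusted p under 0.05. That split turned with the scaling, to 5 higher and 13 lower with upper-quartile scaling, 4 and 14 with median-of-ratios scaling and 8 and 9 with FPKM. The count was 0 without either DMSO depc, either 2-CM poly I:C or 2-CM depc replicate 1 (1757 to 2573 at an unadjusted p under 0.05), 1 without 2-CM depc replicate 2, 3 without RES depc replicate 1, 51 without RES depc replicate 2, 18 and 19 without DMSO poly I:C replicate 1 and 2, and 30 without either RES poly I:C replicate. DDIT3 stood at 30.2 and 22.8 TPM under 2-CM, near the DMSO levels and below RES (RES against 2-CM 2.27, adjusted p 0.0182). PLK1 stood at 139.7 and 139 TPM under 2-CM (-2.28, adjusted p 0.0153) and HIST1H2BK at 55.5 and 57.2 TPM (-1.82, adjusted p 0.0153). CHAC1 and ICAM1 had intermediate 2-CM levels, at 13.3 and 17.8 TPM and at 59.3 and 53.6 TPM, and RES against 2-CM did not pass for them (1.05 and 0.87, adjusted p 0.174 and 0.0658). Between 2-CM and DMSO with depc, which share the DMSO libraries, 6 genes were called (0.0349%).

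The calls lay mostly among genes of high GC content, where replicates agreed better. In the decile of members lowest in GC the median standard error of the log2 fold change was 0.600, and 2 genes were called, 1 in each direction. In the eighth decile it was 0.221, and 41 rose and 9 fell. The median GC content of the genes that rose was 56.2% and of those that fell 57.5%, against 48.7% for all members. When the part of each library's values that follows GC was taken out with a smooth curve, limma called 1884 of 17185 genes (11%), with 930 higher (5.41%) and 954 lower (5.55%), and 173 of the 177 remained called. Each curve was fitted to the values then tested, with no degrees of freedom taken off, so these counts are not on the same footing as those above. Of the 1867 members among the calls, 925 higher and 942 lower, 1782 had the same sign with poly I:C, and 1342 of these an unadjusted p under 0.05 there (limma). With poly I:C 3913 of the 17185 genes had such a p after the correction, in either direction. The share of all members with the same sign in both was not measured after the correction.

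With that correction 12 of the 35 G2 and M genes were lower and 0 higher, against 6.04% and 5.93% of all members: HMMR, AURKA, TPX2, CDC25B, KIF20A, CENPA, CDC20, CCNB1, CCNA2, PLK1, UBE2C and AURKB. Of the 10 AHR targets 4 were lower, AHRR, SLC7A5, CYP1B1 and CYP1A1, and STC2 was higher. CYP1B1 then stood at -2.57 (limma, SE 0.344, adjusted p 0.00301). Of the 25 ATF4 targets 10 were higher, ASNS, ATF3, SESN2 and GDF15 among them, and 2 lower, SLC7A5 and ATF4. Among interferon-induced genes 7 of 32 were higher and 0 lower, among NF-kB targets 6 and 2 of 14, among p53 targets 6 and 0 of 25, and among early response genes 9 and 1 of 19. Of the S phase genes 1 of 39, CDC6, was higher, of the sirtuins and NAD genes 1 of 15, SIRT4, and of the mitochondrial mRNAs 0 of 13 in either direction. Of the 11 estrogen receptor genes 5 were lower, MYC, IGFBP4, GPER1, PDZK1 and GREB1, and 1 higher, STC2. Of the 30 matrix genes 4 were higher and 8 lower, FN1 and COL1A1 among the latter, and of the 23 genes of mitochondrial biogenesis and AMPK 0 were higher and 4 lower, NRF1, PPARGC1A, PPRC1 and FOXO1. Counts of higher and lower genes were 4 and 3 of 31 for glycolysis and hypoxia, 0 and 3 of 18 for heat shock, 0 and 2 of 19 for NRF2 targets, 3 and 3 of 26 for lysosome and autophagy, 2 and 2 of 28 for cholesterol genes, 1 and 0 of 22 for the unfolded protein response, 1 and 0 of 12 for resveratrol metabolism, and 2 and 4 of 13 for RNAs without poly(A) tails. These genes are named from the corrected fit after their values were seen. Some count in several lists, so the counts are not separate. GDF15 and SESN2 count for p53 and ATF4 targets, ATF3 for ATF4 targets and early response genes, and SLC7A5 for AHR and ATF4 targets. STC2 counts for AHR targets, ATF4 targets and estrogen receptor genes, and MYC for early response and estrogen receptor genes.

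**Figure D5:**
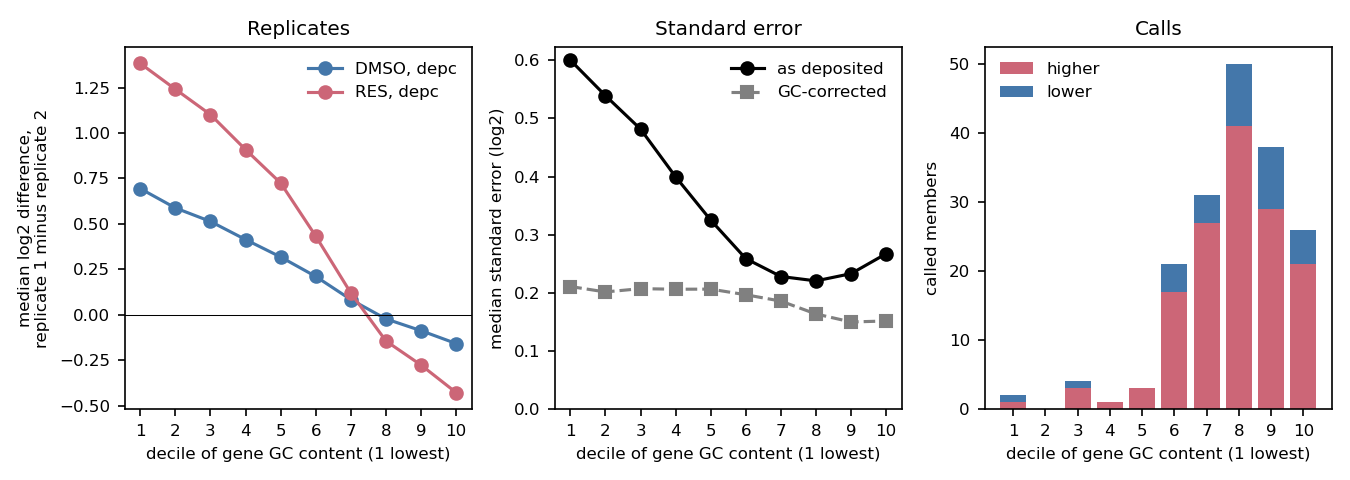
Members by decile of gene GC content, 1 lowest: left, the median difference between replicates 1 and 2 (log2) under DMSO and RES; middle, the median standard error of the log2 fold change as deposited and after GC correction; right, the members called, red higher and blue lower. Replicates differ most and errors are largest at low GC, and the calls lie mostly in deciles 6 to 10.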

How the data were processed

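Polyadenylated RNA of 12 libraries, 2 in each of 6 groups, was sequenced on a NovaSeq6000 from stranded kits, per the labels' protocols. The submitters' processing notes list bcl2fastq 2.20, HISAT2 2.1.0, StringTie, DESeq2 and hg38. Per the file headers, StringTie 2.0.4 estimated the GENCODE 32 transcripts, with no strand option given. The authors deposited for each transcript its TPM, its FPKM and its coverage. Transcript TPM was summed per gene here. Coverage times transcript length, over the read length, gave the estimated reads, and the median ratio of coverage to FPKM gave the library sizes in Gb. No file used here holds read counts, so the tests are those for normalised values.

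Genes with TPM of 1 or more in at least 2 of the 12 libraries were fitted with limma 3.58.1 (R 4.3.3) on log2(TPM + 1), with 6 group means, a variance trend and Benjamini-Hochberg adjustment; a fold change on this scale understates the change of low genes. Tables were made with Python 3.11.15, pandas 2.3.3 and scipy 1.17.1. In simulated data for the depc comparison with 17185 genes, 12 of 100 genes changed by 1 (log2) and 56 of 100 changed by 2 were called, with 6 false calls. The simulated noise was drawn independently for each gene and library, and only genes with a mean log2(TPM + 1) above 2 were changed. The real libraries differed jointly along GC content, so these rates cannot be taken as those of the data. Replicates are not stated to be separate cultures, so p-values measure the spread between these libraries, which may be technical. Named are, per direction, the 15 called protein-coding members of largest fold change whose groups do not overlap and whose higher mean reaches 5 TPM, and of each of 21 lists the called members or otherwise the 3 most abundant; other genes were named after their values were seen. The members and lists were chosen with earlier results of these data known. Gene types and GC content came from a GENCODE annotation and genome of hg38, matched by gene identifier. Alternatives changed the scaling, filter, pseudocount, unit, libraries, replicate block and GC correction.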

Additional observations from a re-analysis of the deposited data

How the results depend on the processing

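The count of genes called with depc, 177 as reported, was 59 with FPKM, 26 with upper-quartile and 13 with median-of-ratios scaling, 396 with no filter on low values, 94 with a TPM minimum of 5, 40 with voom on estimated reads, and 0 with the libraries of the groups compared or the 6 depc libraries alone (limma, 1122 and 1893 at an unadjusted p under 0.05). GC correction called 1884, and with the replicate block 1752. With poly I:C (27) the counts were 16 with FPKM, 17 with upper-quartile scaling, 43 with no filter, 74 with estimated reads as CPM, 0 with the 4 libraries alone (955 at an unadjusted p under 0.05), and 1132 and 947 with GC correction, without and with the block. The difference of the RES effects (0) gave 39 calls with no filter. RES against 2-CM (103) gave 17 with FPKM, 18 with upper-quartile and 18 with median-of-ratios scaling, 59 with a pseudocount of 0.1, 39 with voom, 0 with the groups compared or the depc libraries alone (1242 and 2304 at an unadjusted p under 0.05), and 1951 and 1779 with GC correction, without and with the block. The cause of these differences was not tested. Leaving out each library in turn gave 0 to 67, 0 to 27, 0 to 2 and 0 to 51 calls for these comparisons; where a group kept 1 library, that sample was assumed to vary like the others. The replicate block left 43 calls with depc (16 in the 6 depc libraries, 8 higher and 8 lower, with the median of all genes at 0.15 as before), 9 with poly I:C and 19 against 2-CM (40 in the 6 depc libraries). Samples of the same replicate number deviated together in the DMSO and RES depc groups (correlation 0.67), and so did those of DMSO poly I:C (0.66 and 0.79 with the DMSO and RES depc groups), 2-CM depc (0.43 and 0.51) and 2-CM poly I:C (0.26 and 0.32), but RES poly I:C went the other way (-0.64 and -0.75). Each pair of groups shares 2 numbers and no label gives them a meaning, so the numbers were not taken to pair the samples. No gene called as reported changed sign under a setting that tested it. For the 176 members called, leaving out a library, fitting fewer groups or adding the replicate block could not have changed it. The difference in the mitochondrial mRNA share, which no test called, was 0.0995 without RES depc replicate 1, and the G2 and M and AHR medians were 0.14 and 0.08 without RES depc replicate 2. Of 102 named genes over 27 alternatives, 2085 values stayed on their side of the threshold, 630 lost it and 35 gained it. All 176 called members kept their call in 2 to 20 of the 27 (median 7). The 30 genes of largest change kept it in 3 to 20 (median 11.5), and DDIT3, DHRS2 and HIST1H2BK in 20. Of the other calls within lists, PLK3 and NEU1 kept theirs in 3, ABCG1 in 4, and NUPR1 and IFI27 in 6. SULT1A1 and COL7A1 kept theirs in 7, HIST1H1C in 8, and CHAC1 and FOS in 9. CDC20 kept its call in 13, BTG2 and ENO2 in 15, ICAM1 in 16 and PLK1 in 17. In simulation, with noise independent between genes unlike that of these libraries, a log2 change of 1 was called for 12% of the genes given it.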

Other observations

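Further called genes outside the lists were picked after their values were seen and stand for no group. Those of this paragraph kept their call in 2 (ACTG1) to 10 (IGFBP5) of the 27 alternatives. ACTB, beta-actin, was at 5965 and 5755 TPM under DMSO and at 2741 and 2429 TPM under RES (-1.18, adjusted p 0.0369 with limma), and ACTG1, gamma-actin, fell by 0.87 (adjusted p 0.0483) and CNN2, a calponin, by 1.05 (adjusted p 0.0381). SCNN1A, a subunit of the epithelial sodium channel, was at 251 and 254 TPM under DMSO and at 113 and 123 TPM under RES (-1.09, adjusted p 0.0314), and ASS1, the arginine-synthesis enzyme argininosuccinate synthase, at 182 and 211 TPM and at 74.5 and 97.2 TPM (-1.19, adjusted p 0.0381). The secreted growth factor regulators NOG and IGFBP5 fell by 1.21 and 1.37.

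Other genes picked in the same way rose. Those called kept their call in 4 (IL32) to 13 (MT-TP) of the 27 alternatives. C3, the central complement component, was at 6.70 and 6.55 TPM under DMSO and at 18.9 and 21.7 TPM under RES (1.48, adjusted p 0.0269 with limma). CD74, the invariant chain of MHC class II, was at 10.3 and 11.4 TPM under DMSO and at 31.7 and 32.9 TPM under RES (1.49, adjusted p 0.0257), and also passed with poly I:C (1.43, adjusted p 0.0433). SAA2, an acute-phase protein, rose by 1.66 and IL32, a cytokine, by 1.13. Their groups did not overlap. MT-TP, the mitochondrial proline tRNA, rose from 1117 to 3200.1 TPM on average (1.54, adjusted p 0.0133), although the summed share of the 37 mitochondrially encoded genes was 29.9% ± 1.15 (SD, n = 2) under DMSO and 30.2% ± 2.57 under RES. FN1, fibronectin, was at 259.6 and 214 TPM under DMSO and at 119 and 87.9 TPM under RES with depc (-1.20, adjusted p 0.0571), but had a log2 fold change of 0.32 with poly I:C.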
